A study of Mus musculus with 27 samples.

Results

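The 9 genes described here are known for the control of developmental timing, and were followed across mouse retinal development: Lin28a, Lin28b, Igf2bp1, Igf2bp2, Igf2bp3, Hmga1, Hmga2, Ikzf1 and Casz1. They are the entries of the deposited table that carry these symbols, 9 of 38168 features, and no symbol among them was repeated. The data are RNA-seq values of whole retinas from wild-type C57BL/6J mice, an inbred strain, in 27 libraries at 7 ages. The ages are embryonic day 14 (E14, 3 libraries) and E17 (3), and postnatal day 1 (P1, 4), P6 (3), P15 (4), P28 (4) and P60 (6). All mice were untreated and kept under a light and dark cycle, with tissue taken in the light phase. The labels give 3 retinas per library, whereas the methods of the study describe pools of several embryos or mice at most ages and single mice for some P60 libraries. The labels do not say which P60 libraries are which. By the methods, both sexes are mixed up to P1 and later ages are males, so sex and age cannot be told apart.

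The retina is built in a fixed sequence. Progenitors first make ganglion cells, horizontal cells, cones and amacrine cells, and later make rods, bipolar cells and Müller glia. Heterochronic genes, named for mutations in worms that shift the timing of cell fates, include Lin28, whose RNA-binding protein blocks the maturation of the let-7 microRNAs. Let-7 in turn binds messages such as those of Lin28a, Lin28b, Hmga2, Igf2bp1 and Trim71. The Igf2bp genes encode RNA-binding proteins that hold and stabilise messages, and Hmga genes encode chromatin proteins of dividing cells. Ikzf1 (Ikaros) and Casz1 are zinc-finger factors described in retinal progenitors as the counterparts of fly temporal factors, Ikzf1 for early and Casz1 for mid and late fates.

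The letters that tie several of these genes to let-7 are shown first, and the direction of change is later set beside them. The sequences are RefSeq mature microRNAs (GRCm38.p6), written 5′ to 3′, with the seed, bases 2 to 8, in capitals. Of the let-7 family, 10 mature forms including let-7a-5p and miR-98-5p share the first seed. MicroRNAs were not themselves measured, since the values cover longer transcripts.
mmu-let-7a-5p: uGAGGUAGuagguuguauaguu
mmu-miR-98-5p: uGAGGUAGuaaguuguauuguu
mmu-miR-125b-5p: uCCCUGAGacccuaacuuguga
mmu-miR-9-5p: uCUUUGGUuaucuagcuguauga

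The 7 letters that pair with the let-7 seed, CTACCTC on the message strand, were sought in the longest annotated 3′ untranslated region of each gene (GENCODE M21, GRCm38). They occurred 4 times each in Lin28b, Igf2bp1 and Hmga2, 2 times in Lin28a, and 1 time each in Igf2bp2, Igf2bp3 and Hmga1. Ikzf1 and Casz1 had 0 matches. Over 21010 genes, 9.02% held at least 1 match and 0.0571% held 4 or more. Among genes with a region of similar length (0.8 to 1.25 times), 0.295% held at least as many matches as Lin28b, 0.331% as many as Igf2bp1 and 0.123% as many as Hmga2. Long regions hold more matches, and 34.3% of genes with a region as long as that of Igf2bp1 had at least 1. Several of these genes are textbook let-7 targets, so the matches describe them and are no separate evidence. One 30-base site of each of 4 genes follows, as examples of a match followed by an A, with the match in capitals. All 4 lie on the minus strand of GRCm38, at chr10:45381021-45381050 (Lin28b), chr11:95961777-95961806 (Igf2bp1), chr10:120364223-120364252 (Hmga2) and chr4:134005188-134005217 (Lin28a).
Lin28b site: cccttcacccgggcgggaagtCTACCTCat
Igf2bp1 site: ggcagtgctgtgcgaagtaaaCTACCTCaa
Hmga2 site: gggggcgccgacattcaatttCTACCTCag
Lin28a site: tggagtgcacagcctgttgaaCTACCTCat

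Values are CPM, the reads of a gene scaled to a common library total. All values were whole multiples of 1 read within 0.02 reads, which gave totals of 7077781 to 11332323 reads per library, so 1 read was worth 0.0882 to 0.141 CPM. A value of 0 allows up to 3 reads, and such limits cover counting error only. Progenitor markers (8 genes, Mki67 and Fgf15 among them) summed to 5621 to 5752 CPM at E14 and still 4792 to 5209 CPM at P1, then 567 to 638 CPM at P6 and 157 to 196 CPM at P60. In whole retina, fewer cells of a type and less RNA per cell cannot be told apart. Libraries of one age are separate samples by their labels, but nothing ties them to named animals, so p-values measure the spread between these libraries.

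**Figure D1:**
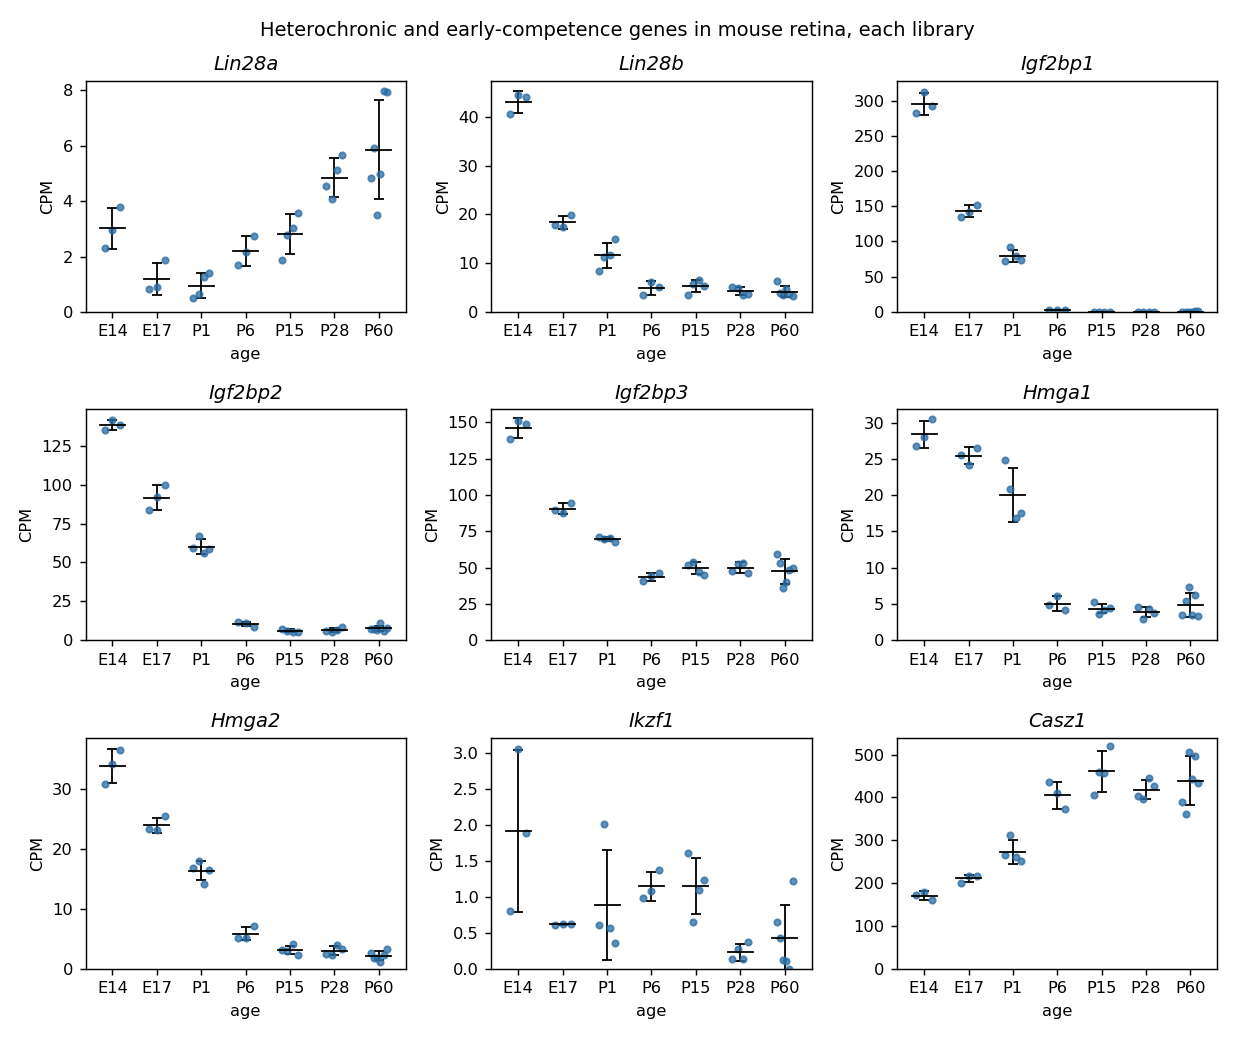
Each panel plots 1 gene, with CPM on a linear axis from 0 and age on the other. Points are libraries, bars are means with SD. Lin28b, Igf2bp1, Igf2bp2, Igf2bp3, Hmga1 and Hmga2 have their highest mean at E14, Casz1 climbs from 171 to 461 CPM (means at E14 and P15), and Lin28a has its lowest mean at P1.

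Mature retina (P15, P28 and P60, 14 libraries) was first compared with embryonic retina (E14 and E17, 6 libraries). Of the 7 genes with a let-7 match, 6 were lower in mature retina and Lin28a was higher. Of the 2 genes without one, Casz1 was higher and Ikzf1 lower. With only 2 genes lacking a match, a link between direction and the match was not tested. A gene was counted as called when the limma test on log2(CPM + 1), fitted on all features, gave an adjusted p under 0.05 and a difference of at least 2-fold. By this rule 7 of the 9 genes were called, 6 lower and 1 higher, beside 16.1% of all features lower and 14.9% higher. With edgeR or with a pseudocount of 0.1 all 9 were called, as Lin28a (higher) and Ikzf1 (lower) then passed the 2-fold limit. More of all features were called then too. Of 31760, edgeR called 6100 lower and 7469 higher, and the pseudocount of 0.1 gave 6885 lower and 6587 higher. By adjusted p alone all 9 passed, beside 75.4% of all features. The median log2 difference of the 9 was -2.40, beside -0.06 over all features. Embryonic and mature libraries did not overlap for Lin28b, the Igf2bp genes, Hmga1, Hmga2 and Casz1. Over all features, 23% were lower and 17.4% higher without overlap. No such share was counted for neighbouring ages, so separations of single ages given below have no background beside them.

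**Figure D2:**
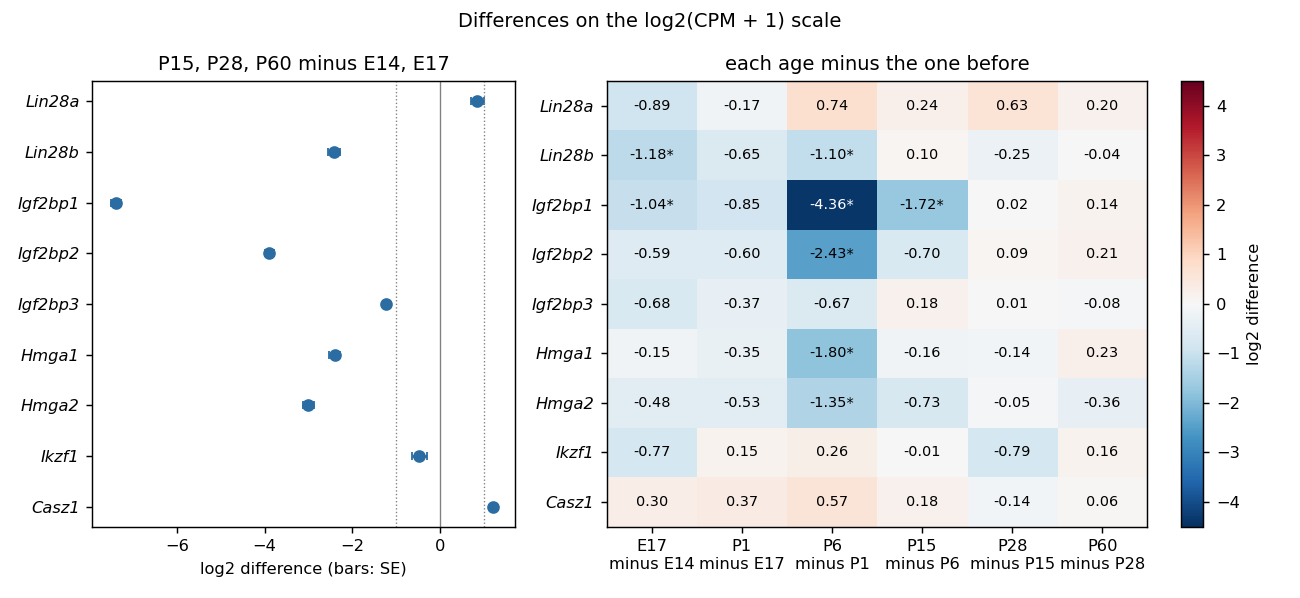
The left panel plots the log2 difference of each gene between mature and embryonic retina on the log2(CPM + 1) scale, with SE bars and dotted lines at the 2-fold limit. The right panel gives the difference of each age from the one before, with an asterisk for differences that were called. The asterisks fall in 3 columns, E17 minus E14, P6 minus P1 and P15 minus P6, and Igf2bp1 has 1 in each.

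Of the LIN28 pair, Lin28b (chr10:45376620-45486395, minus strand) was the higher one in the embryo, per kilobase of exon as well. It measured 40.5, 44.5 and 44.1 CPM at E14, 17.9, 17.4 and 19.9 CPM at E17, and 8.46, 11.2, 11.8 and 14.9 CPM at P1. The 3 ages did not overlap. It then measured 3.39, 6.16 and 5.10 CPM at P6, 3.48, 5.79, 6.57 and 5.36 CPM at P15, and 5.06, 4.91, 3.38 and 3.65 CPM at P28. At P60 the lowest, median and highest values were 3.18, 3.69 and 6.29 CPM. From P6 on the ages overlapped, at 24 to 57 reads per library, so Lin28b stayed detectable in the adult. The mean in mature retina was 4.57 CPM against 30.7 CPM in the embryo, 6.72-fold lower (log2 difference -2.42, SE 0.13, adjusted p = 5.65e-17, limma).

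Lin28a (chr4:134003330-134018841, minus strand), which encodes the related LIN28A protein, went the other way. It measured 2.30, 2.95 and 3.79 CPM at E14, 0.818, 0.882 and 1.86 CPM at E17, and 0.491, 0.630, 1.24 and 1.42 CPM at P1. It reached 1.70, 2.16 and 2.76 CPM at P6, 1.87, 2.77, 3.04 and 3.57 CPM at P15, and 4.53, 4.07, 5.14 and 5.66 CPM at P28. At P60 the lowest, median and highest values were 3.51, 5.44 and 7.97 CPM. These levels rest on 4 to 65 reads per library. All P28 libraries were above all E14 libraries, while P60 reached slightly below the highest E14 value and P15 overlapped E14. The means by age dipped from 3.01 CPM at E14 to 0.946 CPM at P1 and reached 5.86 CPM at P60. Mature retina was 2.15-fold higher in mean CPM than the embryo. On the log2(CPM + 1) scale, which understates low genes, the difference was 0.85 (SE 0.15, adjusted p = 1.06e-05, limma), just short of the 2-fold limit, and edgeR on the recovered reads gave 1.29. Across the 27 libraries the Pearson correlation of Lin28a with Lin28b was -0.45, given as a description of libraries that share ages. Of its exon bases, 5.86% lie over an opposite-strand transcript, Gm13061, and whether counting used the strand is not given in the sources used here.

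Igf2bp1 (chr11:95957163-96005940, minus strand), the message-binding protein of embryonic tissues, had the widest range. It measured 282, 312 and 292 CPM at E14, 135, 141 and 152 CPM at E17, and 72.1, 92.1, 78.7 and 74.4 CPM at P1. At P6 it was 2.97, 3.24 and 2.48 CPM, or 18 to 30 reads. Each of these ages lay wholly below the one before. At P15 and P28 no library held more than 3 reads, at P15 0.134, 0.263, 0.365 and 0 CPM and at P28 0.133, 0.281, 0.271 and 0.126 CPM. At P60 it ranged from 0 to 0.824 CPM, with a median of 0.287 CPM and at most 6 reads. Set against a floor of 3 reads per library, E14 was at least 751-fold higher than P15 and at least 737-fold higher than P28. The fitted log2 difference between mature and embryonic retina was -7.39 (SE 0.11, adjusted p = 8.44e-32, limma) and moved to -9.54 with edgeR, since at values near 0 it depends on the constant added.

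Igf2bp2 (chr16:22059009-22163299, minus strand) had the same order of ages with a residual adult level. It measured 135, 141 and 138 CPM at E14, 83.4, 91.9 and 99.5 CPM at E17, and 59.5, 66.8, 56.0 and 58.7 CPM at P1. It dropped to 11.4, 10.8 and 8.82 CPM at P6, and to 7.36, 5.93, 5.23 and 5.50 CPM at P15 and 5.73, 5.20, 6.63 and 8.42 CPM at P28. At P60 the lowest, median and highest were 6.18, 7.21 and 11.05 CPM. Ages up to P6 did not overlap, and P6 lay wholly above P15 and P28 but not above P60. Mature retina was 17.1-fold lower than the embryo (log2 difference -3.90, SE 0.10, adjusted p = 4.38e-26, limma). Its profile was the closest to that of Igf2bp1 among the 9 genes, with a Pearson correlation of 0.99 over 27 libraries.

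Igf2bp3 (chr6:49085223-49214957, minus strand) kept the highest adult level of the family per kilobase of exon. It measured 139, 151 and 149 CPM at E14, 89.4, 87.8 and 94.7 CPM at E17, 71.4, 69.8, 70.4 and 67.5 CPM at P1 and 40.5, 44.1 and 46.3 CPM at P6. From P6 to P28 the means stayed between 43.7 and 49.9 CPM, and at P60 the lowest, median and highest were 35.8, 49.0 and 59.3 CPM. These last 4 ages overlapped. Mature retina was 2.41-fold lower than the embryo (log2 difference -1.22, SE 0.07, adjusted p = 5.24e-16, limma). At its 3′ end, 1529 exon bases, 18.7% of its exon length, lie over exons of Malsu1 on the opposite strand. Malsu1, which encodes a mitochondrial ribosome assembly factor, had means of 88.3 CPM at E14, 76.4 CPM at P6 and 99.7 CPM at P60. Without strand, reads of the 2 genes in the shared bases cannot be told apart, and the share of Malsu1 in the adult Igf2bp3 value was not tested.

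**Figure D3:**
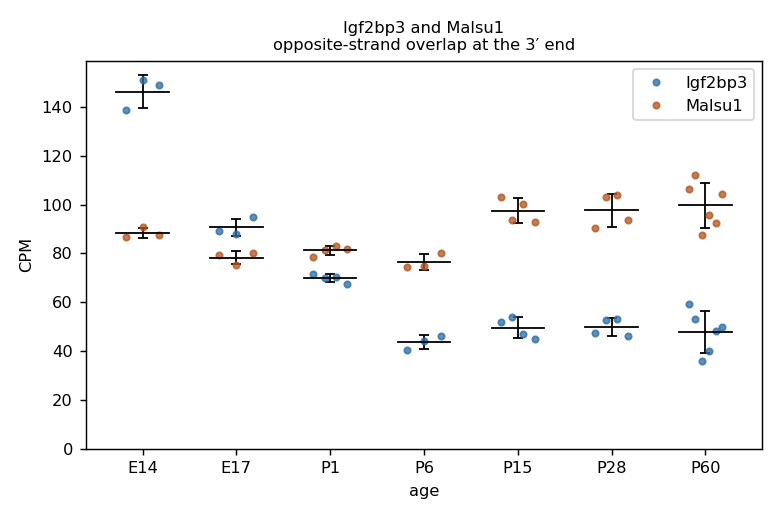
CPM of each library by age, with means and SD, for Igf2bp3 beside Malsu1 on 1 linear axis from 0. Igf2bp3 is above Malsu1 at E14 and below it from P1 on.

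Hmga2 (chr10:120361275-120476469, minus strand), a chromatin protein linked to the self-renewal of young stem cells, measured 30.9, 34.3 and 36.6 CPM at E14, 23.4, 23.2 and 25.5 CPM at E17, and 16.8, 18.0, 14.2 and 16.6 CPM at P1. It measured 5.23, 5.19 and 7.17 CPM at P6, 3.08, 3.03, 4.14 and 2.34 CPM at P15, and 2.40, 2.39, 3.92 and 3.27 CPM at P28. At P60 the lowest, median and highest were 1.10, 2.08 and 3.31 CPM. The first 5 ages formed a descending series without overlap, and P15, P28 and P60 overlapped at 10 to 34 reads per library. By limma the steps up to E17 (log2 difference -0.48, adjusted p = 0.177) and up to P1 (-0.53, adjusted p = 0.0998) missed the threshold. Both passed in a limma fit of only the ages compared (adjusted p = 8.7e-05 and 0.00122). With edgeR the step up to P1 had an adjusted p of 0.0277. Mature retina was 10.5-fold lower than the embryo (log2 difference -3.0, SE 0.13, adjusted p = 5.74e-20, limma).

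Hmga1 (chr17:27556497-27563674, plus strand), the relative found in most dividing cells, stayed high longer. It measured 26.8, 28 and 30.4 CPM at E14, 25.6, 24.2 and 26.5 CPM at E17, and 24.9, 20.8, 16.8 and 17.5 CPM at P1, where it overlapped E17. At P6 it was 4.80, 6.16 and 4.14 CPM, below every P1 library, and from P15 to P60 the means were 3.89 to 4.87 CPM. Mature retina was 6.15-fold lower than the embryo (log2 difference -2.40, SE 0.13, adjusted p = 2.45e-17, limma). Its values are uncertain to the extent that reads were shared with near-identical sequence elsewhere in the genome.

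Ikzf1 (chr11:11685003-11772926, plus strand), the early-competence factor, was close to the limit of detection. It measured 0.800, 3.06 and 1.89 CPM at E14 and 0.613, 0.618 and 0.621 CPM at E17, or 6 to 29 reads per library. It measured 0.613, 2.02, 0.565 and 0.355 CPM at P1, 0.989, 1.08 and 1.38 CPM at P6, and 1.61, 0.658, 1.10 and 1.24 CPM at P15. At P28 all 4 libraries held at most 3 reads, and at P60 values ran from 0 to 1.22 CPM with a median of 0.274 CPM. The E14 libraries overlapped those of P1, P6 and P15, and E14 was at least 4.78-fold higher than P28 against a floor of 3 reads per library. The difference of mature from embryonic retina was -0.47 on the log2 scale (SE 0.17, adjusted p = 0.0137, limma), short of the 2-fold limit. It was -0.33 with an adjusted p of 0.0894 (limma) without E14 replicate 2, the library at 3.06 CPM, and edgeR on the recovered reads gave -1.04. Ikzf1 is also known from white blood cells. The sum of 11 white blood cell and microglia markers was 20.5 to 24.2 CPM at E14, 15.5 to 18.1 CPM at E17 and 17.6 to 24.4 CPM at P1. The same sum was 30.2 to 33.5 CPM at P6, 23.6 to 29.4 CPM at P15, 19.2 to 23.4 CPM at P28 and 13.7 to 25.0 CPM at P60. The part of such cells in the Ikzf1 values was not tested.

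Casz1 (chr4:148804429-148954889, plus strand), the factor tied to mid and late fates, was the only one of the 9 called higher in mature retina by limma on the log2(CPM + 1) scale. It measured 172, 179 and 160.1 CPM at E14, 201, 216 and 216 CPM at E17, and 266, 313, 262 and 251 CPM at P1. At P6 it was 435, 409 and 372 CPM, at P15 406, 459.6, 457 and 521 CPM, and at P28 404, 396, 445 and 426 CPM. At P60 the lowest, median and highest were 361, 439 and 505 CPM, with replicates 1 and 2 (390 and 361 CPM) below the other 4 (433 to 505 CPM). The first 4 ages were ordered upward without overlap, and from P6 on all ages overlapped. Mature retina was 2.30-fold higher than the embryo (log2 difference 1.20, SE 0.06, adjusted p = 1.01e-17, limma), and by 1.24 on the log2 scale with these 2 libraries left out. Its Pearson correlations over 27 libraries were -0.94 with Lin28b, -0.94 with Igf2bp1 and -0.95 with Igf2bp2.

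The steps between neighbouring ages place these changes in time, and neighbouring comparisons share the libraries of the age between them. From E14 to E17, 2 genes were called, both lower, beside 0.702% of all features lower and 3.6% in either direction. They were Igf2bp1 (log2 difference -1.04, SE 0.19, adjusted p = 0.000155, limma) and Lin28b (-1.18, SE 0.22, adjusted p = 0.000216, limma). With a pseudocount of 0.1 in place of 1 the Igf2bp1 difference was much the same (-1.05) but missed the threshold (adjusted p = 0.28, limma). By adjusted p alone 5 passed, beside 10.6% of all features, the others being Igf2bp3 (-0.68), Igf2bp2 (-0.59) and Lin28a (-0.89). On all libraries edgeR made 3 calls, with Lin28a (-1.37) added, and a pseudocount of 0.1 called Lin28b and Lin28a (-1.34). Of all 31760 features, edgeR called 341 lower and 1464 higher in this step, and the pseudocount of 0.1 gave 243 lower and 1573 higher. Without E14 replicate 1 there were 4 calls, as Lin28a (-1.02) and Ikzf1 (-1.08) came in, and without E17 replicate 3 there were 3. Igf2bp2 missed the threshold without E14 replicate 2 (adjusted p = 0.057, limma) or E17 replicate 1 (0.0817). Lin28a missed it without E14 replicate 2 (adjusted p = 0.0589, limma), E14 replicate 3 (0.12), E17 replicate 1 (0.11) or E17 replicate 2 (0.098). Casz1 at 0.30 had an adjusted p of 0.0528 (limma), which ranged from 2.96e-05 to 0.246 over the alternatives and was 0.00801 with P60 replicates 1 and 2 left out. Hmga1 did not pass (-0.15, SE 0.21, adjusted p = 0.798, limma).

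From E17 to P1 none of the 9 was called by limma, beside 0.614% of all features lower and 1.23% higher, and edgeR also called 0. At an unadjusted p under 0.05 there were 6, for which the share of all features was not counted. At an adjusted p under 0.05 there were 5, beside 9.21% of all features. These were Igf2bp1 (-0.85, adjusted p = 0.00129, limma, and 0.397 with a pseudocount of 0.1), Igf2bp2 (-0.60), Igf2bp3 (-0.37), Lin28b (-0.65) and, in the other direction, Casz1 (0.37). The 4 after Igf2bp1 did not hold without single libraries. Igf2bp2 reached an adjusted p of 0.0711 (limma) without E17 replicate 3, and Casz1 0.0715 without E17 replicate 1 and 0.0596 without P1 replicate 2. Igf2bp3 missed the threshold without any 1 of the 7 libraries compared, with adjusted p (limma) up to 0.149. Lin28b missed it in 10 of the fits that left out 1 library (any of E14 or E17, P1 replicates 1 to 3, or P6 replicate 3), with adjusted p (limma) from 0.0501 to 0.176, and also with a pseudocount of 0.1 (0.0778) or with no filter on low values (0.0509). Progenitor markers were still at 4792 CPM or more in all P1 libraries.

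From P1 to P6 the 2 Hmga genes, Lin28b, Igf2bp1 and Igf2bp2 all fell, 5 called lower of 9 beside 6.74% of all features lower and 6.3% higher. Igf2bp1 had the largest step of the 9 (log2 difference -4.36, SE 0.18, adjusted p = 3.12e-19, limma), from a mean of 79.3 to 2.90 CPM. Igf2bp2 changed by -2.43 (SE 0.15, adjusted p = 1.57e-14, limma), Hmga1 by -1.80 (SE 0.20, adjusted p = 6.53e-09) and Hmga2 by -1.35 (SE 0.20, adjusted p = 1.32e-06). Lin28b changed by -1.10 (SE 0.21, adjusted p = 5.75e-05, limma), and by -0.98 without P1 replicate 4 and -0.90 without P6 replicate 1, which left 4 calls. Igf2bp3 (-0.67), Casz1 (0.57) and Lin28a (0.74) passed the adjusted p but not the 2-fold limit, making 8 by adjusted p alone beside 38.3% of all features. Lin28a was called higher with edgeR (1.24, adjusted p = 0.0113) and with a pseudocount of 0.1 (1.23, adjusted p = 0.00615, limma). Lin28a on the log2(CPM + 1) scale missed the adjusted p without P1 replicate 1 (adjusted p = 0.0579, limma) or P6 replicate 3 (0.0843). Ikzf1 at 0.26 did not pass (adjusted p = 0.482, limma). In the same interval the median of the 8 progenitor markers changed by -4.45, and their part in these falls was not tested.

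After P6 few of these genes changed. From P6 to P15 Igf2bp1 was the 1 gene called (log2 difference -1.72, SE 0.18, adjusted p = 3.49e-09, limma), beside 3.31% of all features lower and 8.05% in either direction, at a P15 level too low to fix the size, which was -3.73 with edgeR and -3.57 with a pseudocount of 0.1. Igf2bp2 (-0.70) and Hmga2 (-0.73) also fell by adjusted p, 3 in all beside 33.4% of all features. In the last 2 steps limma and edgeR each called 0 of 9, beside 0.384% of all features up to P28 and 0.453% up to P60. The latter share was larger with P60 replicates 1 and 2 left out, as given in the last section. At an unadjusted p under 0.05 there were 2 from P15 to P28, Lin28a (0.63, adjusted p = 0.145, limma) and Ikzf1 (-0.79, adjusted p = 0.0817), and 1 from P28 to P60, Hmga2 (-0.36, adjusted p = 0.151). The share of all features at an unadjusted p under 0.05 was not counted. The Ikzf1 step passed in a limma fit of only the ages compared (adjusted p = 0.0352). It also passed without P1 replicate 2, a library of neither age that enters only the shared spread (adjusted p = 0.0485, limma). In both fits the difference stayed at -0.79, short of 2-fold.

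Levels of different genes were compared per kilobase of exon, and the place of Hmga1 is uncertain for the shared reads named above. At E14 the order by mean CPM per kilobase was Igf2bp1 (30.5), Igf2bp2 (18.7), Igf2bp3 (17.9), Casz1 (14.0), Hmga1 (13.4), Hmga2 (5.01), Lin28b (4.75), Lin28a (0.754) and Ikzf1 (0.332). Neighbours whose libraries overlapped were Igf2bp2 with Igf2bp3, Casz1 with Hmga1, and Hmga2 with Lin28b. Casz1 was first from E17 on, at 17.2 CPM per kilobase at E17 and 35.9 at P60, and did not overlap the next gene at any of these ages. At P60 Igf2bp3 was next at 5.84, followed by Hmga1 (2.29) and Lin28a (1.47), which overlapped. Lin28a and Lin28b overlapped at P6, at 0.552 and 0.539 CPM per kilobase, whereas at P60 Lin28a was at 1.47 and Lin28b at 0.460. Igf2bp1, first at E14, was last at P15, P28 and P60, overlapping Ikzf1 at P28 and P60.

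**Figure D4:**
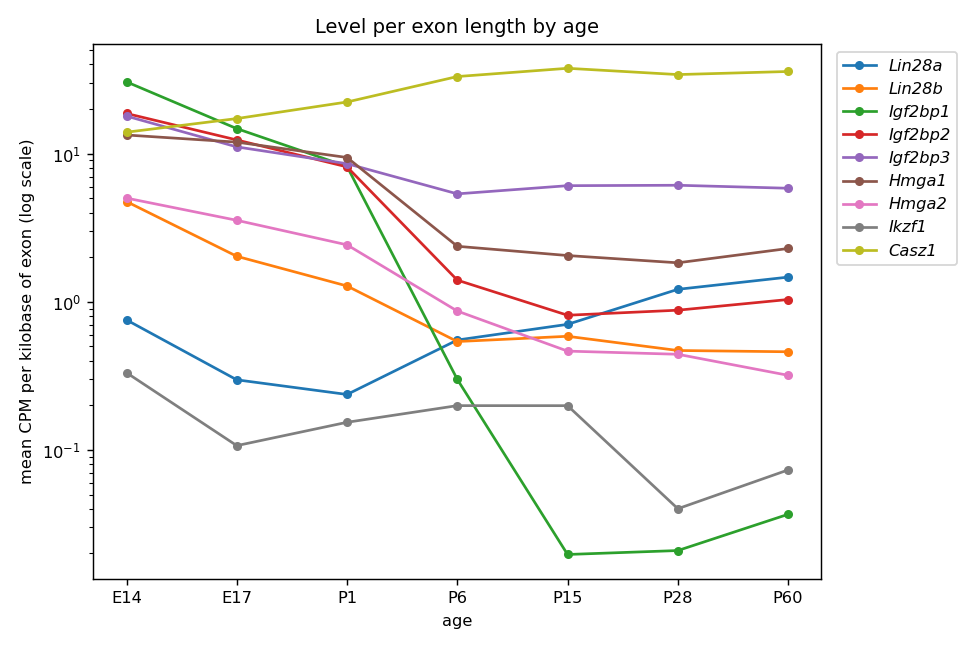
Mean CPM per kilobase of exon at each age, on a log scale, 1 line per gene. The line of Igf2bp1 drops from 30.5 at E14 to 0.0197 at P15, Casz1 ends on top at 35.9, and the lines of Lin28a and Lin28b cross at P6.

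Related genes were counted from lists of the same pathways, with the call rule above for mature against embryonic retina (background 31% of all features called). Of 18 let-7 targets outside the 9 genes, 10 were called lower, 1 higher and 7 not, with a median log2 difference of -1.37. Those with the largest changes were Ccnd1 (-6.27), a cyclin of the G1 phase, the phosphatase Cdc25a (-3.76), Trim71 (-3.40) and Mycn (-3.32). Trim71, the mammalian lin-41 and itself heterochronic, measured 36.9, 37.7 and 40.9 CPM at E14 and 1.84, 1.73 and 3.03 CPM at P6. Prtg, a cell surface protein of young neuroepithelium, also fell (-1.50), and Arid3b rose (1.17). By letters, 13 of these 18 had at least 1 let-7 match in the longest 3′ region, and Ccnd1, Ccnd2, Mycn and Myc were among those with 0.

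Genes that make or act with microRNAs moved less. Of 14, 2 were called higher, 1 lower and 11 not, with a median of -0.37. Trim25, a cofactor of LIN28A in the tailing of pre-let-7, rose (2.51), from a mean of 3.69 CPM in the embryo to 25.3 CPM in mature retina. Ago1, an Argonaute that carries microRNAs, fell (-1.58), and Tnrc6b, a partner of Argonautes in silencing, rose (1.06). Zcchc11 (TUT4), the enzyme that tails pre-let-7 with LIN28, differed by -0.89 and was not called. Of 27 host transcripts and precursors of let-7, miR-125, miR-99/100 and miR-9 listed, 5 were in the table, 2 called lower, 1 higher and 2 not. One of them, 2610307P16Rik (-4.55), spans none of these microRNAs in the annotation and was listed in error. The annotation places 3 others over such microRNAs. Mir99ahg, which spans miR-99a, let-7c and miR-125b, rose (1.15), from a mean of 20.3 CPM in the embryo to 46.1 CPM in mature retina. It measured 24.6, 25.3 and 26.1 CPM at E14, and 57.6, 56.6 and 61.1 CPM at P6, an age outside this comparison. At P60 it measured 50.5 and 46.9 CPM in replicates 1 and 2 and 25.5 to 36.6 CPM in the other 4. C130071C03Rik, which spans a miR-9 gene, fell (-1.21), and Mir9-3hg (-0.64) was not called. Mir9-3hg ran from 0.842 to 11.0 CPM over the embryonic libraries and from 1.31 to 2.84 CPM over the mature ones.

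Of 12 partners and bound messages of the IGF2BP proteins, 7 were called lower, 1 higher and 4 not (median -1.22). H19, an imprinted RNA, fell most (-5.82), followed by Actb (-2.29), the message on which zipcode binding was described, Myc (-2.0) and Pabpc1 (-1.73), while Cd44 rose (1.69). Igf2 itself, the message that gives the family its name, differed by -0.28. Of 9 other high mobility group genes, 4 were called lower, 0 higher and 5 not (median -0.96), the former including Hmgb3 (-3.01), Hmgb2 (-2.84) and Hmgb1 (-1.93).

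Of the other Ikaros family genes, Ikzf2 (Helios) rose (1.10), from a mean of 35.0 CPM in the embryo to 75.3 CPM in mature retina. It measured 25.8, 31.0 and 29.3 CPM at E14, and 72.2, 70.7 and 74.2 CPM at P6, an age outside this comparison. At P60 Ikzf2 measured 96.9 and 88.2 CPM in replicates 1 and 2 and 55.6 to 66.8 CPM in the other 4. Ikzf4 (Eos) differed by -0.97 and Ikzf5 by 0.05, neither called, and Ikzf3 was too low to test, with at most 0.842 CPM. Of 14 genes of NuRD, the chromatin complex that Ikaros proteins and Casz1 are known to bind, 5 were called lower, 1 higher and 8 not (median -0.70). Mta1 (-1.65), Hdac2 (-1.44) and Mbd3 (-1.44) fell, and Chd5, the neuronal remodeller, rose (2.56). Of 8 other transcription factors of temporal competence, 4 were called lower, 2 higher and 2 not (median -1.31). Foxn4 (-6.82), Onecut2 (-3.48), Onecut1 (-3.10) and Pou2f2 (-2.38), tied to early fates, fell, and Nfix (3.52) and Nfia (1.17), tied to late progenitors, rose. Nfib, of the same family as Nfix and Nfia, was not called, with means of 77.9 CPM in the embryo and 57.7 CPM in mature retina. Its embryonic libraries ran from 34.7 to 120 CPM and its mature ones from 38.0 to 68.6 CPM. The pooled contrast therefore does not describe its course within the embryo.

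**Figure D5:**
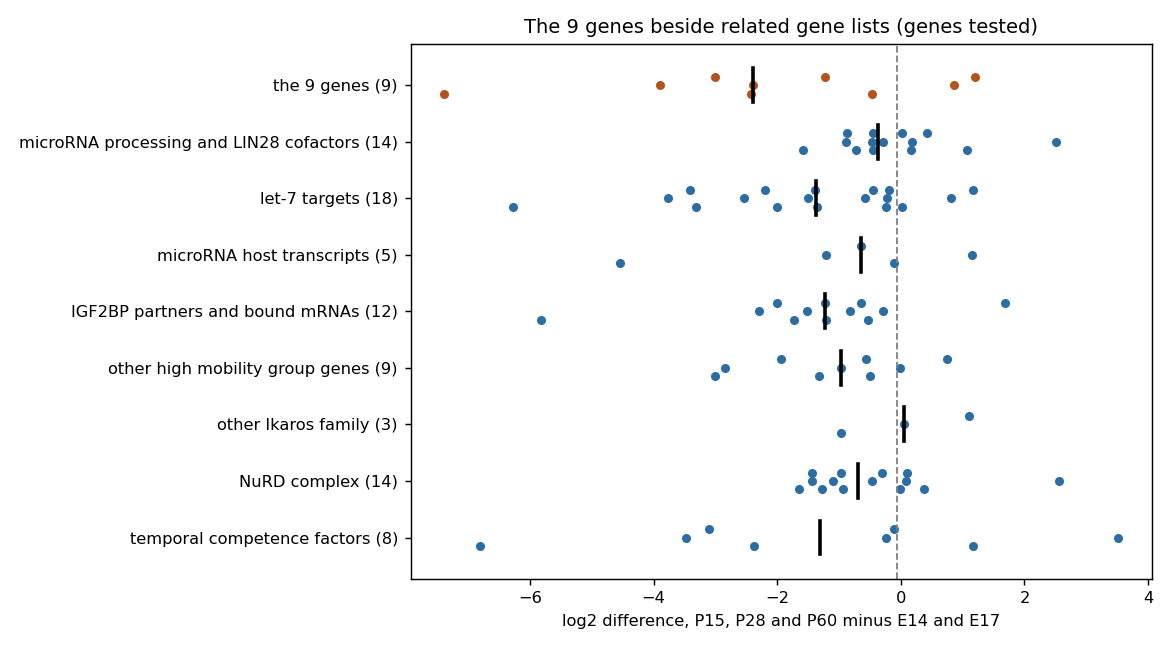
Each point is the log2 difference of 1 gene between mature and embryonic retina on the log2(CPM + 1) scale, by list, with the number of genes tested in brackets. Black bars are medians and the dashed line is the median of all features (-0.06). The microRNA host list includes the entry listed in error (-4.55). The 9 genes have the lowest median, -2.40, and the Ikaros relatives the highest, 0.05.

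The features whose profiles over the 27 libraries were most like each gene are given by Pearson correlation of log2(CPM + 1) among 18218 features, as a description, since all libraries share the same 7 ages. For Igf2bp1 these were Plagl1 (0.997), A830092H15Rik (0.994) and Ticrr (0.994), and for Igf2bp2 Fgf15 (0.991), Sox2 (0.990) and Mcm4 (0.989), the first 2 being progenitor genes. Hmga1 was closest to Mcm3 (0.979), and Hmga2 to Casp8ap2 (0.984), Bcl11a (0.983) and Cbx5 (0.983). Lin28b was closest to Tenm3 (0.972), Nr0b1 (0.972) and Dlx2 (0.970), and Dlx2 was also among the 3 nearest to Igf2bp3 (0.965). Casz1 was closest to Apoe (0.985) and Syp (0.984), and Lin28a to Mina (0.901), Zfp106 (0.891) and Car14 (0.889). Ikzf1 had no feature above 0.749 (Cdk8).

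Promoter windows (RefSeq, GRCm38.p6, 250 bases before to 50 after the start) were given for 8 of the 9 genes, all but Igf2bp1. No searched motif was in the windows of all genes that fell from P1 to P6. A GC box (GGGCGG on either strand, 35.7% of 32851 promoters) was in Hmga1, Hmga2, Igf2bp2, Lin28a and 1 of 2 Ikzf1 windows, an E-box (CACGTG, 7.15%) in Lin28b and Igf2bp3, and an E2F-type run (TTCCCGC, 4.6%) in Hmga2, where it overlaps the GC box. TAATCC, the letters read by the photoreceptor factors CRX and OTX2 (7.06%), occurred in 1 window, the internal start of Casz1, where it was found 2 times. The Lin28b window and the 2 Ikzf1 windows also lie wholly inside the annotated spans of their genes. These are letters in a window and not bound sites, and gene totals do not show which start was used. The Hmga2 and Casz1 windows are shown as the examples of a falling and a rising gene, with motif letters in capitals, at chr10:120476420-120476719 (minus strand) and chr4:148889097-148889396 (plus strand). In Casz1 the other capitals are CCAAT boxes (CCAAT on either strand, 37.4% of promoters), which also occurred 1 time each in Lin28b and Igf2bp3.
Hmga2 promoter: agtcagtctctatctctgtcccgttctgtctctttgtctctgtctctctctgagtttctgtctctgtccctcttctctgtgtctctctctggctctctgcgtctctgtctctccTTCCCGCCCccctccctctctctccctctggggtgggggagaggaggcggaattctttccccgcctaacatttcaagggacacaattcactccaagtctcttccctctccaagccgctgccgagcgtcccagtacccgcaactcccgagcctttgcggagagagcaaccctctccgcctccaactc
Casz1 promoter: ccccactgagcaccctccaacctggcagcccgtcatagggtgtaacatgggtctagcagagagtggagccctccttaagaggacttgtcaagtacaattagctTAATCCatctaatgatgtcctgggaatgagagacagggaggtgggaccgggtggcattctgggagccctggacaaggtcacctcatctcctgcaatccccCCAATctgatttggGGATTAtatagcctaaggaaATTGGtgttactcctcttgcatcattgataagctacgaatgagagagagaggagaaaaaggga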

How the data were processed

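Total RNA of dissected retinas was made into libraries with the SMARTer total RNA kit, read as single ends and aligned to mm10 (GRCm38) with STAR by the authors, who deposited 1 table of CPM values. The annotation and the use of strand in counting are not given in the sources used here. Of the values of every library, 100% were whole multiples of 1 read (tolerance 0.02 reads), from 7077781 to 11332323 reads per library.

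Here, values were taken as log2(CPM + 1), and limma 3.58.1 (R 4.3.3) with a mean-variance trend and age as the factor was fitted to all 27 libraries and 31760 features with a CPM of 1 or more in 3 or more libraries. All 9 genes passed this filter. P-values were two-sided and adjusted over these features (Benjamini-Hochberg). The verbs rose and fell mean an adjusted p under 0.05, and a call also needs 2-fold. Lists name up to 4 called genes with the largest difference, and relatives of the 9. Arid3b, Zcchc11, Igf2, Cd44, Mir9-3hg, Malsu1, Pou2f2, Nfia and Nfib were named after their values were seen. No batch is given in the labels. Same-numbered libraries deviated little together (69 pairs, correlations -0.129 to 0.167, median -0.0018, 3 pairs above 0.1), so numbers were not used as pairs. Pairs of different number were not set beside them, so a shared batch is not excluded. Libraries of an age differed beyond sampling noise (lowest chi-square per degree of freedom 1.69, 42 pairs). Alternatives were edgeR 4.0.16 on the recovered reads, other pseudocounts, filters and scaling, and leaving out each library. The tests were tried on simulated data. Some listed genes are not reported here by name, and 1 was left out of its list. The genes and lists were chosen with earlier results of these data known. Sequences and motifs were read with Python 3.11.15. Gene locations and exon lengths are from GENCODE M21, not the authors' annotation.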

Additional observations from a re-analysis of the deposited data

Results flagged for a closer look

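Of 36 sets of libraries tested (1 gene at 1 age with 4 to 6 libraries), 2 held a library far from the others, and chance alone flags about 1 in 20 such sets. P60 replicate 4 stood apart for Igf2bp2, at 11.05 CPM (100 reads) against 6.18 to 7.84 CPM in the other 5. P1 replicate 2 stood apart for Ikzf1, at 2.02 CPM (16 reads) against 0.355 to 0.613 CPM in the other 3.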

How the results depend on the processing

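Of 611 alternative values of the 63 single-gene differences, 7 lost and 10 gained an adjusted p under 0.05, and of 1701 values with 1 library left out 29 lost and 10 gained one. In sign, 10 and 19 of these values changed, none of them past the threshold on either side, so 0 reversed. Calls, which also need 2-fold, were gained 13 times and lost 1 time over the 611, and gained 3 times and lost 2 times over the 1701, among Lin28a, Lin28b, Ikzf1 and Igf2bp1. The cause of these changes was not tested. The number of the 9 genes called from E14 to E17, 2, became 3 with edgeR, 4 without E14 replicate 1, and 4 with edgeR without that library, an alternative added after seeing the data. Leaving out P60 replicates 1 and 2 together, also added after seeing the data, changed 0 of the 7 counts. The background of the last step did change. From P28 to P60 that fit called 1044 lower and 121 higher of 31650 features, against 120 lower and 24 higher with all libraries. With no minimum log2 difference the calls became 5 (E14 to E17), 5 (up to P1), 8 (up to P6) and 3 (up to P15). Leaving out 1 library gave 7 in each case for mature against embryonic retina, 2 to 4 for the step up to E17, 0 up to P1, 4 to 5 up to P6, 1 up to P15, and 0 for both later steps. EdgeR called 9 for mature against embryonic retina and 6 up to P6, as did a pseudocount of 0.1. Of all 31760 features, edgeR called 2806 lower and 3117 higher up to P6, and the pseudocount of 0.1 gave 2871 lower and 2934 higher. The replicate block left the counts at 7, 2, 0, 5, 1, 0 and 0. With that block, Igf2bp3 from E17 to P1 reached an adjusted p of 0.0691 (limma), and with median-of-ratios scaling Casz1 in that step reached 0.0577. Requiring a mean of 10 CPM or more removed Lin28a and Ikzf1 among others. The median log2 difference of all features between mature and embryonic retina was -0.0647 with CPM and 0.0377 with edgeR, a shift well below the differences called. Depth limits Ikzf1, adult Igf2bp1 and Lin28a, which rest on 0 to 65 reads per library.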
